A study of Drosophila melanogaster with 2 samples.

Results

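The genes described here encode the subunits of the vacuolar ATPase (V-ATPase). They were taken as every protein-coding gene of the Drosophila melanogaster annotation whose symbol starts with Vha, which gave 33 of 13945 protein-coding genes on 2L, 2R, 3L, 3R, 4 and X. The prorenin receptor homologue VhaPRR, an accessory protein of the pump, carries the symbol ATP6AP2 in this annotation, so it was not counted among the 33. The question was at which of these genes a sisA-eGFP fusion protein was bound, and how the main form of each subunit compared with its paralogs.

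The data were peak lists from chromatin immunoprecipitation and sequencing (ChIP-seq) of whole embryos aged 0 to 18 h. All samples carried the sisA-eGFP transgene, and chromatin was precipitated through the tag with an anti-GFP antibody. There were 2 biological replicates of this 1 group, with no untagged or untreated group among the samples, and the labels do not give the promoter that drives the fusion or the sex of the embryos. The sisA gene encodes a basic leucine zipper protein of the X chromosome counting signal in early embryos, while the collection spans most of embryogenesis, so bound sites from many stages and tissues are pooled. The depth of each replicate is unknown because the files give peaks and not reads.

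The V-ATPase is a rotary pump that uses ATP to move protons into endosomes, lysosomes and secretory vesicles and, in some epithelia, across the plasma membrane. Its V1 sector, in the cytoplasm, binds and splits ATP, and its V0 sector, in the membrane, carries the protons. In Drosophila several subunits have a main gene used in most tissues and further paralogs with restricted expression, many of them in the testis, while other subunits have a single gene. On this general knowledge, and not on any expression measured here, 14 genes were placed in a class of widely expressed or single-gene members and 19 in a class of restricted paralogs.

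A gene was called occupied when the summit of a peak in the authors' conservative list lay within 1000 bp of any of its transcription start sites (TSSs). By this rule 12 of 33 Vha genes (36.4%) were occupied, and 21.1% of all protein-coding genes were. The occupied genes were not spread evenly over the classes: 8 of 14 widely expressed or single-gene members (57.1%) and 4 of 19 restricted paralogs (21.1%) were occupied. The restricted paralogs were thus occupied at the same share as all genes, and the main class at a higher one. No test was run on these counts, which rest on few genes.

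The sequence under the summits is given for 5 occupied genes and for Vha55, so that the sites can be compared by eye. These summits lay outside exons. Those of Vha14-1, Vha16-1, Vha16-5 and Vha36-1 also lay between protein-coding genes but are not printed. Each window holds 101 bases of the dm6 assembly centred on the summit (61 bases for Vha55), written on the strand of the Vha gene, with the central 21 bases around the summit in capitals. The windows are chr2L:12974152-12974252 on the plus strand for Vha68-2, chr2L:13004185-13004285 on the minus strand for Vha68-1, chr3R:5591498-5591598 on the plus strand for Vha26, chr3R:19644437-19644537 on the minus strand for Vha13, chr3R:23159405-23159505 on the minus strand for VhaAC39-2 and chr3R:12627830-12627890 on the minus strand for Vha55.
Vha68-2: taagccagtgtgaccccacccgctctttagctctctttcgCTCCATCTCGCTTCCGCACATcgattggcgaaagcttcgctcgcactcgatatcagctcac
Vha68-1: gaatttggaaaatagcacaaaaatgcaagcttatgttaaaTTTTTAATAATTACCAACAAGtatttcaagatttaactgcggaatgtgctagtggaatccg
Vha26: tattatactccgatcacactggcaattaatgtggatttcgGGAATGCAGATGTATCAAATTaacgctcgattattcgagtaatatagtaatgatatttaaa
Vha13: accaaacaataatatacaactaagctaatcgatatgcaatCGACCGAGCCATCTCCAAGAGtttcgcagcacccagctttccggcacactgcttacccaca
VhaAC39-2: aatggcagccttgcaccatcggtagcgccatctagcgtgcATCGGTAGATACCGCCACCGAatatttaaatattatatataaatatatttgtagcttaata
Vha55: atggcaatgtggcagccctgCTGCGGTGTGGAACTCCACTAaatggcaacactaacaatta
The windows differ in base composition even between the paralogs of subunit A: the share of A and T was 44.6% at Vha68-2 and 69.3% at Vha68-1. It was 68.3% at Vha26, 53.5% at Vha13, 61.4% at VhaAC39-2 and 50.8% in the shorter window of Vha55.

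Peak height below is the signal that the authors' peak caller gave each peak, a value with no stated normalization, used only to describe and rank peaks within a list. The median signal of the conservative list was 128. In the V1 sector 6 of 13 genes (46.2%) were occupied, against the 21.1% of all genes. Subunit A, the catalytic subunit that binds ATP, has 3 genes on 2L. The widely expressed Vha68-2 had a peak with a signal of 134 at a summit 120 bp upstream of its TSS. No TSS of another protein-coding gene lay within 1000 bp, and start sites of noncoding genes were not searched here or below. In the ranked lists of the single replicates the same peak stood at 63.9 (replicate 1) and 73.8 (replicate 2). The restricted paralog Vha68-1 had the taller peak, with a signal of 286 at 128 bp upstream (158 in replicate 1 and 143 in replicate 2), but its start region is shared. The TSS of mTor, which encodes the kinase of TOR signalling, lay 245 bp from that summit on the opposite strand. Vha68-3, only 179 bp downstream of Vha68-2 in the same direction, was not occupied: its nearest conservative summit was the one at Vha68-2, 4584 bp upstream of its own TSS.

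The central shaft of the rotor is built from subunits D and F, and in both the widely expressed gene was occupied and the restricted genes were not. Vha36-1 (subunit D) had a signal of 141 at 52 bp upstream of its TSS, in a narrow gap shared with CG8187, whose TSS was 20 bp from the summit. Among the 12 occupied genes the replicates differed most at this one, at 98.1 in replicate 1 against 45.6 in replicate 2, a ratio of 2.15. Its paralogs Vha36-2 and Vha36-3 had their nearest conservative summits at 17154 bp and 1743 bp. Vha14-1 (subunit F) was called occupied by a tall peak with a signal of 451, at 212 in replicate 1 and 242 in replicate 2. That summit lay 821 bp downstream of the Vha14-1 TSS, past the end of the gene, and 307 bp upstream of the TSS of Gmppa, the next gene on the same strand. It is therefore nearer to Gmppa than to Vha14-1. The paralog Vha14-2 had no conservative summit nearer than 10012 bp.

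The peripheral stalk that holds the pump's head still is made of subunits E and G, each encoded by a single gene, and both genes were occupied. Vha13 (subunit G) had a signal of 174 at 101 bp upstream of its TSS, 102 in replicate 1 and 75.4 in replicate 2. The TSS of Nup58, a nuclear pore component, lay 539 bp from this summit on the opposite strand. Vha26 (subunit E) had a weaker peak, with a signal of 87.4 at 215 bp upstream, 45.0 in replicate 1 and 44.5 in replicate 2. Its summit was nearer to the divergent gene noi, a splicing factor gene, with 89 bp to the noi TSS. Although the replicate signals of Vha26 were nearly equal, the peak was in the thresholded list of replicate 1 only.

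The regulatory subunits C and H, which sit where V1 meets V0, are also encoded by single genes, and neither was occupied. Vha44 (subunit C, released when the pump is reversibly taken apart) had its nearest conservative summit 2070 bp upstream. A weaker ranked peak lay 90 bp upstream of the Vha44 TSS with a signal of 54.9. Its summit was nearer to the divergent gene Hmgs, with 33 bp to the Hmgs TSS. The peak passed the threshold in the list of replicate 1 alone (signal 38.8 there and 19.2 in replicate 2). VhaSFD (subunit H) had its nearest conservative summit at 6953 bp and a strongest ranked signal of 54.5 within 1000 bp.

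Subunit B, the non-catalytic nucleotide-binding partner of subunit A, has the single gene Vha55, and it was the one Vha gene where the lists disagreed by a tall peak. The ranked list of both replicates, from before thresholding, held a peak with a signal of 220 and the highest score given, 1000, with its summit 31 bp upstream of the Vha55 TSS and 171 bp from the TSS of the divergent gene Snx3. The peak had a score of 1000 in each replicate's ranked list too, where its signal was 98.6 (replicate 1) and 127 (replicate 2). It was taller than 75.0% of the conservative peaks, and yet none of the 4 thresholded lists held it. On the chromosome arms 5265 ranked peaks had a score at or past the threshold of 830. Of these, 132 were missing from the conservative list, 71 of them on 3R. The nearest other missing peak was 866814 bp away, and the nearest conservative summit was 26280 bp from the Vha55 TSS. Per the file listings, the thresholded lists were made with 1 further input file, whose content the listings do not state. Whether it removed this peak was not tested. Counted with the ranked peaks at or past the score threshold, Vha55 was occupied and the total was 13 of 33, against 21.5% of all genes.

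**Figure D1:**
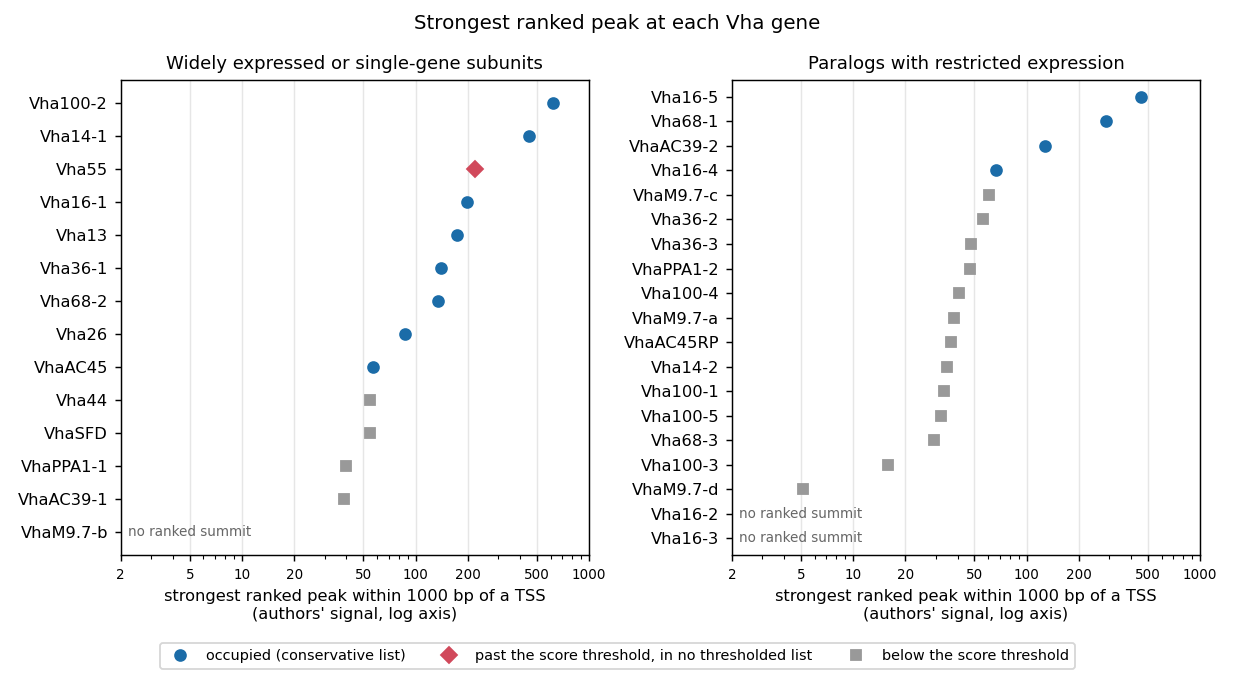
Signal of the tallest peak no farther than 1000 bp from a start site of each Vha gene, from the ranked list of both replicates (log axis), with widely expressed or single-gene members on the left and restricted paralogs on the right. Blue circles are occupied genes, the red diamond is Vha55 at 220, and grey squares are peaks below the score threshold, which lay between 5.17 and 60.3; the 3 genes with no ranked summit within 1000 bp are written as such.

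In the V0 sector 5 of 18 genes (27.8%) were occupied, which is close to the 21.1% of all genes. Main-class genes make up a smaller share of V0 than of V1, and the part of this in the sector counts was not tested. Subunit a, the membrane stator with the proton half-channels, has 5 genes. The widely expressed Vha100-2 had the tallest peak of all Vha genes, with a signal of 618, at 336 in replicate 1 and 279 in replicate 2. This summit lay 306 bp upstream of one of the 2 TSSs of Vha100-2, inside an intron of the gene, and in the 5' UTR of Vti1b, a vesicle SNARE gene on the opposite strand whose TSS was 239 bp away. A second, weak peak with a signal of 63.6 lay 30 bp downstream of the outer TSS of Vha100-2. It was in the conservative list but in neither replicate's thresholded list and not in the authors' longer list. The other 4 genes of subunit a, Vha100-1, Vha100-3, Vha100-4 and Vha100-5, were not occupied. Their nearest conservative summits lay between 6835 bp (Vha100-1) and 77630 bp (Vha100-5) away, although Vha100-4 lies just downstream of Vha100-2, with 518 bp between the genes.

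The proteolipids of the membrane ring (subunit c) showed the opposite order to subunit a, with the tallest peak at a restricted gene. Vha16-5 had a signal of 454 at 296 bp upstream of its TSS, 231 in replicate 1 and 219 in replicate 2. The summit was 6 bp upstream of the TSS of the divergent gene CG12299, and so far nearer to that gene's start than to that of Vha16-5. The widely expressed Vha16-1 had a signal of 198 at 129 bp upstream of a TSS, 102 in replicate 1 and 96.4 in replicate 2. No other protein-coding gene had a start site within 1000 bp of the Vha16-1 summit. Vha16-4 had a weak peak with a signal of 66.2, at 256 bp downstream of its TSS and in its coding sequence, with 32.3 in replicate 1 and 31.2 in replicate 2. It was in neither replicate's thresholded list and not in the longer list. Vha16-2 and Vha16-3, which lie 986 bp apart on 3L, had no summit within 1000 bp even among the ranked peaks.

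Among the remaining V0 subunits, 1 of 8 genes was occupied, a restricted one, with 21.1% of all genes as the background. VhaAC39-2 (subunit d, which links the shaft to the ring) had a signal of 127 at 139 bp upstream of its TSS, 67.2 in replicate 1 and 53.9 in replicate 2, with no other start site within 1000 bp. Its widely expressed paralog VhaAC39-1 had its nearest conservative summit at 12100 bp and a strongest ranked signal of 38.8. For the second ring proteolipid, neither VhaPPA1-1 nor VhaPPA1-2 was occupied, with the same nearest summit at 5651 bp and 1867 bp. None of the 4 genes of the small membrane subunit e was occupied. The nearest was VhaM9.7-c at 2540 bp, which had a weaker peak past the threshold in the list of replicate 1 alone (signal 43.2 there and 19.3 in replicate 2). VhaM9.7-a lay 3369 bp, VhaM9.7-d 5125 bp and VhaM9.7-b 23670 bp from a conservative summit.

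Of the accessory membrane proteins, VhaAC45 had the weakest of the peaks that made a gene occupied, with a signal of 56.6 in its coding sequence at 549 bp downstream of the TSS. The replicate signals were 32.4 and 30.2, and the peak was in neither replicate's thresholded list and not in the longer list. The TSS of Gnptab lay 986 bp from this summit. The related VhaAC45RP was not occupied, with the nearest summit at 2149 bp, and ATP6AP2 had none nearer than 9604 bp.

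Read by subunit, the main gene alone was occupied for D, F, a and Ac45, a restricted paralog alone for d, and both kinds for A and c. The call for F rests on the Vha14-1 summit that is nearer to Gmppa. That for Ac45 rests on a weak peak found in neither replicate's thresholded list. For e and the second proteolipid no gene was occupied. Of the 5 single-gene subunits, Vha13 and Vha26 were occupied and Vha44, Vha55 and VhaSFD were not. The distance threshold of 1000 bp did not cut through a dense group of values: the farthest summit inside it was at 821 bp (Vha14-1) and the nearest outside at 1743 bp (Vha36-3).

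Height did not separate the classes among occupied genes. The strongest peaks of the 12 genes had signals from 56.6 to 618 with a median of 157, and the median over all 2940 occupied protein-coding genes was 172. The median was 157 for the 8 genes of the main class and 207 for the 4 restricted genes. In the ranked list, which also holds weak peaks, 30 of 33 Vha genes had a summit within 1000 bp (81.5% of all genes did). The median of the strongest ranked signal was 134 for the main class and 40.7 for the restricted class, and 40.9 over all genes with such a peak. The 17 unoccupied Vha genes with ranked peaks below the score threshold had signals from 5.17 to 60.3.

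Replicates were compared peak by peak, since the data hold no second group. Of the 12 strongest peaks, 10 had a summit within 100 bp in the thresholded list of replicate 1 and 9 in that of replicate 2, and the same 9 were in both. Over the whole conservative list these shares were 75.8% and 62.0%. The summits of the replicates' own ranked peaks lay at most 61 bp from the conservative summit. The signal was higher in replicate 1 at 10 of 12 genes, with the exceptions Vha14-1 and Vha68-2, and the ratio of replicate 1 to replicate 2 ran from 0.866 at Vha68-2 to 2.15 at Vha36-1 with a median of 1.07. The values come from separately called lists, so this ratio describes the lists and not a change. The share of all conservative peaks with a higher signal in replicate 1 is not given here.

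**Figure D2:**
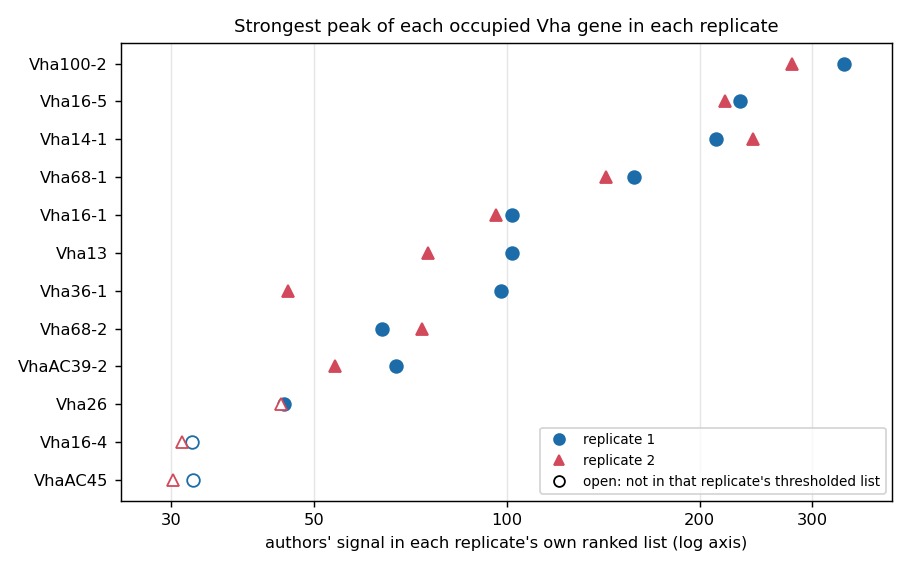
Signal of the strongest peak of each occupied Vha gene in the ranked list of replicate 1 (circles) and of replicate 2 (triangles), on a log axis, with open symbols where the peak was not in that replicate's thresholded list. The order of the genes is nearly the same in both replicates, and Vha36-1 has the widest gap (98.1 and 45.6).

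Using each replicate's own list, the genes occupied numbered 12 of 33 for replicate 1 (20.6% of all genes) and 9 of 33 for replicate 2 (16.1%). The authors' longer list gave 10 (22.3%), and the peaks above the median signal of the conservative list gave 9 (13.9%). Across these lists and the conservative one, 9 genes were occupied in every case: Vha68-1, Vha68-2, Vha36-1, Vha14-1, Vha13, Vha100-2, Vha16-1, Vha16-5 and VhaAC39-2. A further 5 (Vha26, Vha44, Vha16-4, VhaAC45 and VhaM9.7-c) were occupied in some of them. The main class stood at 8, 6, 7 and 6 of 14 in the lists of replicate 1, replicate 2, the longer list and the stronger peaks, and the restricted class at 4, 3, 3 and 3 of 19.

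Other ways of joining peaks to genes left the main class with the higher share of occupied genes. With a summit within 500 bp, 10 Vha genes were occupied (17.8% of all genes), 42.9% of the main class and 21.1% of the restricted class. Within 2000 bp 14 were (26.9%), at 57.1% and 31.6% of the classes. A single TSS per gene gave 12 (19.2%), the peak interval in place of the summit 12 (22.0%), and the gene body with 2000 bp upstream 12 (28.9%). Vha68-1 and Vha100-1 could also be read as broadly used genes. With both moved, the main class stood at 9 of 16 and the restricted class at 3 of 17.

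**Figure D3:**
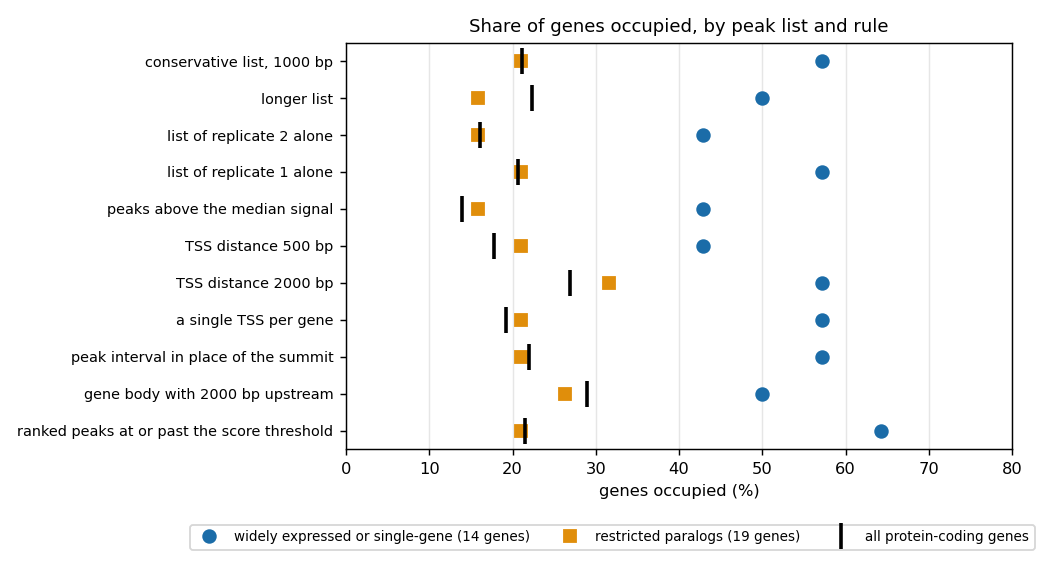
Percentage of genes occupied under each peak list or rule, for 14 widely expressed or single-gene Vha genes (circles), 19 restricted paralogs (squares) and all 13945 protein-coding genes (vertical bars). The circles lie to the right of the squares and the bars under each of the 11 rules, while the squares fall on both sides of the bars.

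The start regions of the classes also differed. Another protein-coding gene's TSS lay within 1000 bp of the TSS of 9 of 14 main-class genes but of 6 of 19 restricted genes. The share was 42.9% for all genes. Genes with such a neighbour were occupied more often: 32.2% of all genes with a neighbour and 12.7% without one. Among the Vha genes with a neighbour, 6 of 9 of the main class and 3 of 6 of the restricted class were occupied. Without a neighbour, 2 of 5 of the main class (Vha16-1 and Vha68-2) and 1 of 13 of the restricted class (VhaAC39-2) were occupied. Several TSSs were annotated for 5 of 14 main-class genes, 3 of 19 restricted genes and 26.5% of all genes. The part of these features in the difference between the classes was not tested.

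Most of the bound regions are shared with a gene outside the V-ATPase. At 9 of 12 occupied Vha genes another protein-coding gene's TSS lay within 1000 bp of the strongest summit (60.8% of all occupied genes). At 5 of 12 that TSS was the nearer one (30.3%). These 5 were Vha100-2 with Vti1b, Vha16-5 with CG12299, Vha14-1 with Gmppa, Vha36-1 with CG8187 and Vha26 with noi. At 5 of 12 the summit lay between a divergent pair, upstream of both genes (44.1% of all occupied genes): Vha68-1 with mTor, Vha13 with Nup58, Vha26 with noi, Vha36-1 with CG8187 and Vha16-5 with CG12299. A peak in such a gap cannot be assigned to either gene from its position. Only Vha16-1, Vha68-2 and VhaAC39-2 had a strongest summit with no other protein-coding start site within 1000 bp. All 3 summits were 120 to 139 bp upstream of the TSS. The strongest summit was upstream of the TSS at 9 of 12 genes (83.6% of all occupied genes), with a median distance of 177 bp in either direction, and 181 bp over all occupied genes.

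**Figure D4:**
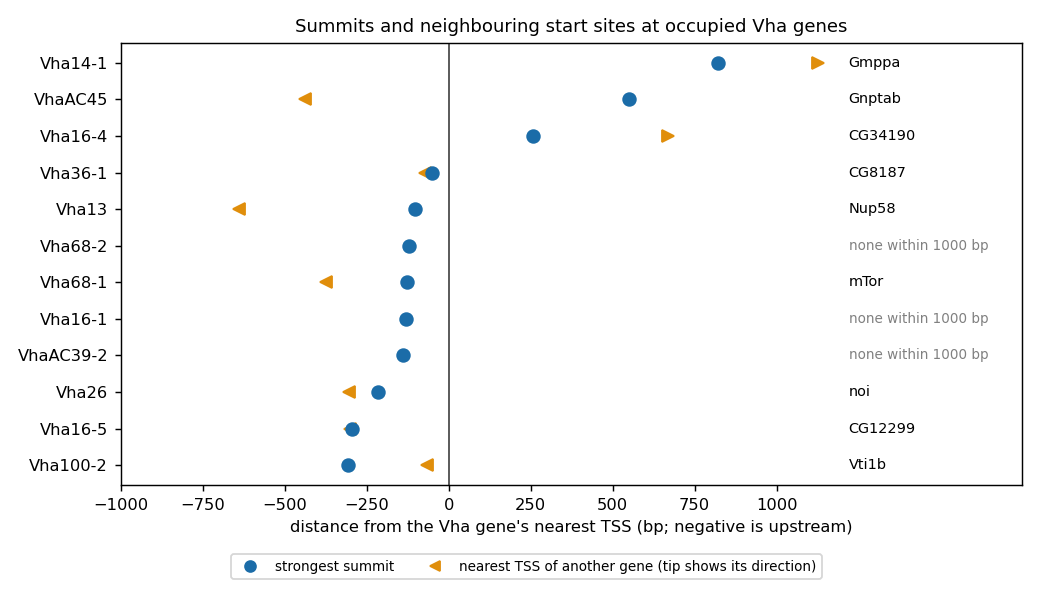
Distance of the strongest summit (blue) from the nearest TSS of each occupied Vha gene, placed at 0 with the gene running to the right. The nearest TSS of another protein-coding gene within 1000 bp of the summit is orange, the tip showing its direction of transcription. Vha14-1, VhaAC45 and Vha16-4 have summits downstream of their TSS, and the other 9 upstream.

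Peaks of 340 bp, the median width of the conservative list, made up 8 of the 12 strongest peaks. They also made up 3699 of the 5133 conservative peaks on the chromosome arms. Sequence within 50 bp of the 12 summits had a median A and T content of 57.5%, from 39.6% at VhaAC45 to 70.3% at Vha14-1, and was richer in A and T than its flanks at 6 of 12. The 2386 conservative summits within 1000 bp of a protein-coding TSS had a median of 66.3%, and 76.7% of them were richer in A and T than their flanks. Short motifs were then searched on both strands within 100 bp of each summit. Their shares below are over all 5133 conservative summits on the arms, not only the 2386 near a protein-coding TSS. The TATA box word TATAAA was found at Vha16-1, Vha68-1 and VhaAC39-2, and in 33.1% of all conservative summits. At Vha16-1 and Vha68-1 it lay 83 and 80 bp from the summit, on the side away from the gene's TSS. At VhaAC39-2 the matches lay on the TSS side. Whether any match serves as a TATA box was not tested. GGTCACACT, a core promoter word known as Ohler motif 1, was found at Vha68-2, where it lies in the printed window as its reverse complement, and in 1.13% of all summits. None of the 12 windows held the E-box CACGTG (1.79% of all), its extended form TCACGTGA (0.136%), the AP-1 site TGANTCA (4.79%), the CRE TGACGTCA (0.273%), the C/EBP-like palindrome TTGCGCAA (0.234%), the DRE TATCGATA (2.36%), the GAGA word GAGAGAG (2.55%) or the Zelda site CAGGTAG (0.877%). The shorter E-box lies within the extended one, so these counts overlap.

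CACGTG is of interest because the lysosomal gene regulator Mitf, a basic helix-loop-helix zipper factor, is known to act on V-ATPase genes through such boxes. In promoters, taken as 250 bp before to 50 bp after the gene start, CACGTG was found at 3 of 33 Vha genes (Vha44, VhaAC45RP and VhaM9.7-d) and in 4.20% of all promoters, and TCACGTGA at Vha44 only (0.172% of all promoters). None of these genes was occupied in the conservative list, in which 21.1% of all genes were. Vha44 was occupied in the list of replicate 1 alone (20.6% of all genes). So few genes do not show whether binding and this word go together. The DRE was found at Vha55 and VhaSFD (9.36% of all promoters), and Ohler motif 1 at Vha100-1, Vha26 and Vha68-2 (6.05%). TATAAA was present in the promoters of 17 of 33 Vha genes and 45.8% of all genes.

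Genes that work with the pump were read from a list of 19 acidification and lysosome genes, of which 5 were occupied, against 21.1% of all genes. They were Rbcn-3A, a rabconnectin needed to assemble the pump (signal 69.3, at 39.8 in replicate 1 and 36.6 in replicate 2), RagA-B, a lysosomal GTPase of TOR signalling (signal 130), the acid proteases CtsL1 (signal 139) and CtsB (signal 58.8), and car, a member of the HOPS tethering complex (signal 170, at 109 and 60.4). All 5 summits lay upstream, between 58 and 511 bp from the TSS, and each was between divergent genes. For RagA-B (CG11970 at 102 bp) and CtsL1 (the proteasome gene Rpn13 at 95 bp) the other gene's TSS was the nearer one. Mitf itself, on chromosome 4, had no conservative summit within 171581 bp. The other 13 genes were Rbcn-3B, ClC-b, ClC-c, Nha1, Nha2, RagC-D, Trpml, Lamp1, cathD, Npc1a, spin, dor and lt.

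Other multi-subunit complexes gave a scale for the count of Vha genes. Of the mitochondrial ATP synthase genes, whose enzyme is the rotary relative of the V-ATPase, 3 of 15 were occupied. Of the proteasome genes 8 of 48 were occupied, and of the cytoplasmic ribosomal protein genes 46 of 92. The ATP synthase and proteasome genes, like the restricted Vha class at 21.1%, lay near the 21.1% of all genes. The ribosomal protein genes and the Vha genes taken whole, at 12 of 33 (36.4%), lay above it. Within the Vha genes, the main class stood at 57.1%. The other complexes were counted whole, without a division into classes, so neither Vha class has a counterpart among them. No difference between these lists was tested.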

How the data were processed

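The deposited files were peak lists on dm6, per the file listings: a conservative and a longer list from both replicates, 1 thresholded list per replicate, and the ranked lists before thresholding. Which peak caller, aligner and read filter were used is not given in these sources. The authors deposited a signal for each peak, with no normalization stated, and a score, which is a whole number that rises as the irreproducible discovery rate (IDR) of the peak falls. No peak of the thresholded lists had a score under 830, which corresponds to an IDR of 0.01. Depth is unknown, no control sample was analysed here, and the labels do not say whether the replicates came from separate cages. All columns used were mapped, with 0 left over.

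Genes and TSSs came from Ensembl release 115 (BDGP 6.54), whose chromosome lengths were compared with the peaks, and sequences from the same assembly. Occupancy, neighbours, replicate matches (100 bp) and motifs were counted in Python 3.11.15 with numpy 2.4.6 and pandas 2.3.3, and the occupancy call was tested on simulated summits. No hypothesis test was run. Every Vha gene is named, with every occupied gene of the acidification and lysosome list, and neighbours where they share a summit. The members, classes and lists were chosen with earlier results of these data known. Alternatives were other lists, distances and rules of joining peaks to genes, other motif windows, and another placing of Vha68-1 and Vha100-1. The ranked peaks past the score threshold, and the alternatives for the ATP synthase, proteasome and ribosomal protein genes, were added after seeing the data.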

Additional observations from a re-analysis of the deposited data

Results flagged for a closer look

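The peak at Vha55 drew attention as a signal outside the main list. The ranked list of both replicates gave it a signal of 220 and a score past the threshold, and no thresholded list held it.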

How the results depend on the processing

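No paired analysis was possible because the samples form 1 group. The counts of occupied Vha genes, of both classes, of proteasome genes and of peaks matched in both replicates stayed within 1.5 times of the reported count under every alternative tried. Of 76 alternatives in all, 11 moved a count further. The count of occupied acidification and lysosome genes, 5 in the conservative list, was 3 with peaks above the median signal, 8 within 2000 bp, 9 with gene bodies and 2000 bp upstream, and 3 to 4 with 1 replicate's list left out. For ATP synthase genes, 3 in the conservative list, it was 1 with peaks above the median signal, 5 within 2000 bp, 5 with gene bodies and 2 with either replicate's list left out. For ribosomal protein genes, 46 in the conservative list, it was 26 with peaks above the median signal and 30 to 46 with 1 replicate's list left out. Leaving out a replicate's list gave 9 to 12 occupied Vha genes, 6 to 8 of the main class, 3 to 4 restricted and 6 to 10 proteasome genes. Strongest summits with any listed motif numbered 4 within 100 bp, 2 within 50 bp and 7 within 200 bp. The wider window holds more sequence. TATAAA alone was in 33.1%, 19.8% and 46.5% of all conservative summits in these windows. Fewer peaks pass in the list of replicate 2 and above the median signal, and wider rules reach more genes; other causes were not tested. Unknown depth limits what an absent peak shows.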
